A study of Drosophila melanogaster with 6 samples.

Results

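The nuclear genes for subunits of oxidative phosphorylation complexes I, III, IV and V were read in whole male L3 larvae (the third larval stage) of the Drosophila strain w1118 whose mothers had eaten a high-sucrose or a control diet. Genes were chosen by a rule on their symbols, and the choice was made with earlier results of these data known. The rule took names that begin with ND-, UQCR-, COX4 to COX8 or ATPsyn, and Cyt-c1, RFeSP, ox, cype, levy and blw. Symbols that end in L, L1 or L2 were left out, because most of them name testis paralogues. Each gene was represented by its brightest probe set with a single gene symbol. This gave 53 genes of the 11982 with such a probe set: 26 of complex I, 7 of complex III, 9 of complex IV and 11 of complex V. In RefSeq 64 symbols meet the rule, and the other 11 were not analysed here, among them the complex I core subunits ND-23, ND-24, ND-30 and ND-49.

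The high-sucrose group (3 arrays) came from mothers fed 1 M sucrose for 7 days from shortly after eclosion, and the control group (3 arrays) from mothers fed 0.15 M sucrose for as long. Both groups of mothers were mated to w1118 males on control food, and the offspring of both ate control food, spent 12 h on a fresh supply before collection, and differ by label only in the maternal diet. Stocks were reared at 25 C. The labels describe the larvae both as in the middle of the third instar and as wandering. They give no number of larvae per array. RNA came from whole larvae, so that fewer cells of a type and less RNA per cell cannot be told apart.

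Oxidative phosphorylation makes most of the ATP of aerobic cells. Complex I takes electrons from NADH, complex III passes them to cytochrome c, and complex IV hands them to oxygen, while all of them pump protons across the inner mitochondrial membrane. Complex V, the ATP synthase, lets the protons flow back through a rotating ring and makes ATP. Complexes I, III, IV and V join subunits coded in the nucleus to subunits coded in the mitochondrial genome. In muscle and other tissues of high demand the nuclear genes are among the most strongly expressed.

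The deposited values are linear intensities. Array medians over the 18769 tested probe sets lay between 51.5 and 55.2 in the high-sucrose arrays and between 52.8 and 55.7 in the control arrays, and upper quartiles between 212.8 and 216.3 in the high-sucrose arrays and between 218.2 and 224.2 in the control arrays. Marker genes of tissues that a whole larva holds were all above 0. The summed intensity of 9 measured muscle genes of 14 listed was 42421 to 45282 in high-sucrose and 42663 to 45617 in control arrays, with 0 genes called. That of 4 fat body genes of 7 was 29094 to 30008 in high-sucrose and 30701 to 33197 in control arrays, with 0 called and 3 lower at an unadjusted p under 0.05. That of 13 testis genes of 13 was 5331 to 5583 in high-sucrose and 4237 to 4864 in control arrays. Of these testis genes 7 were higher at an unadjusted p under 0.05, and 1 of them, Mst98Ca, was called. The summed intensity of 8 midgut enzyme genes of 8 was 16154 to 17095 in high-sucrose and 24506 to 25307 in control arrays, with 6 called lower. The part of these tissue markers in the values below was not tested.

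No subunit of any of the 4 complexes was called different between the maternal diets. Called means an adjusted p under 0.05 in limma, with Benjamini-Hochberg adjustment over all tested probe sets. Over the whole array 0.623% of probe sets were called (117 of 18769), with 0.0533% of all probe sets called higher and 0.57% called lower. Of the 53 members 0 were called in either direction. The smallest adjusted p among them was 0.24, for COX7A. At an unadjusted p under 0.05 there were 4 members (7.55%), against 12.4% of all probe sets. Among probe sets above the upper quartile of brightness, where 50 of the 53 members lie, the share was 23.7%. COX7A, COX7B and COX5B were on the lower side, where 8.8% of all probe sets lay, and ND-B8 was on the higher side, where 3.59% lay. Of the 53 members, 48 had a log2 difference (high-sucrose minus control) below 0, with a median of -0.079, whereas 58.9% of all probe sets lay below 0, with a median of -0.034. With quantile scaling and cyclic loess, described further on, 20 and 26 members lay below 0, and the medians of complexes III, IV and V lay above 0.

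The intervals around these small differences were narrow. Of the 50 members brighter than the upper quartile of all probe sets (218.9), 49 had a 95% interval that stayed within 20% of no difference on either side. The exception was ND-75, with an interval from -10.3% to 25.2%. This holds for the brightest probe set of each gene on the deposited scale. Of other bright probe sets, those of ND-ACP reached down to -22.3% and -20.5%, and that of ATPsynbeta to -23.9%. Those of ND-B17 and ATPsyngamma and the second of COX7B stayed within 20%. The median spread within a group was 0.08 on the log2 scale for these 50 members, and 0.082 for all probe sets above the same quartile. ND-B8, ND-B12 and UQCR-11 were dim, with mean intensities of 28.8, 57.6 and 35.5 against a median of 53.9 over all probe sets, and their intervals were wider.

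**Figure D1:**
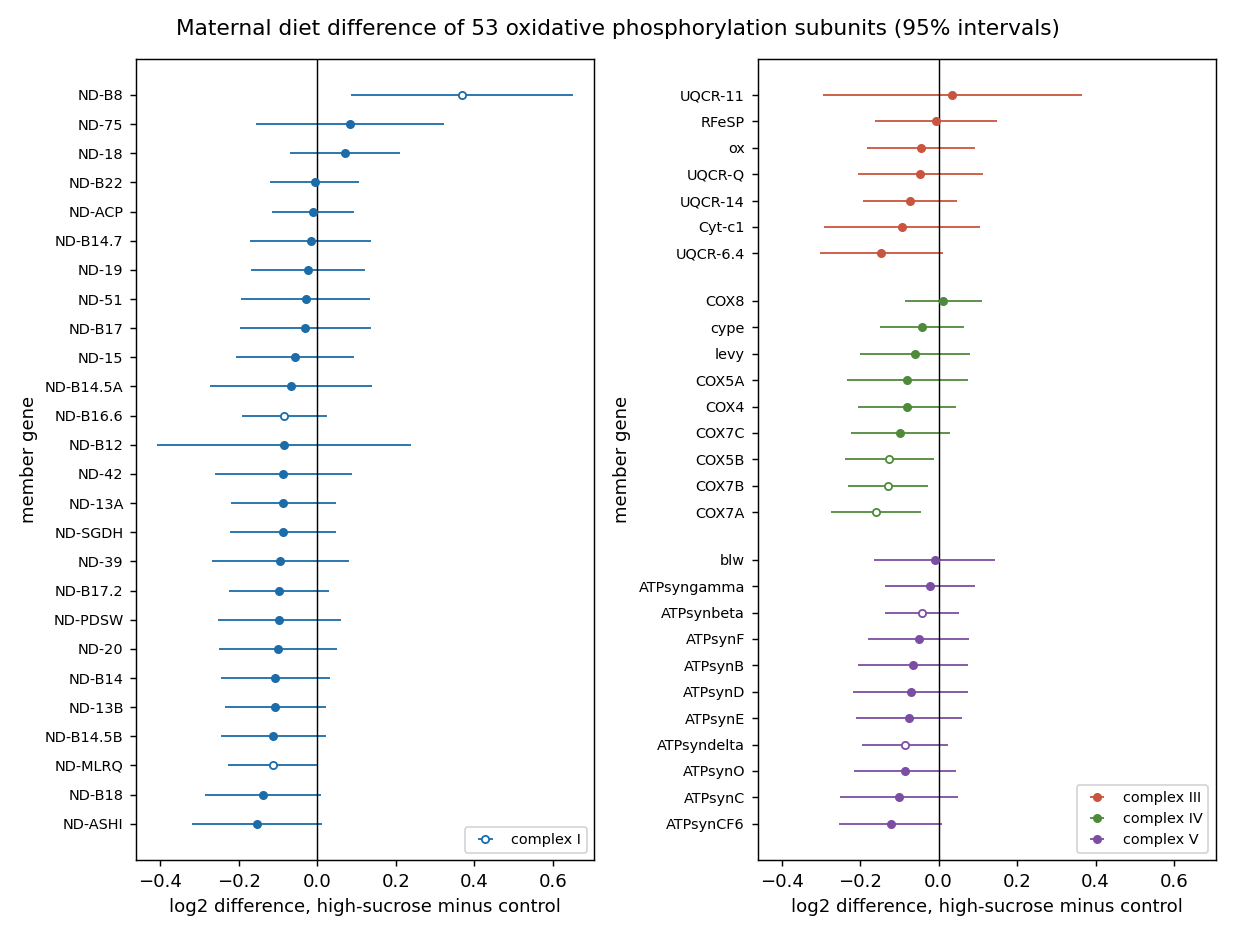
Log2 difference (high-sucrose minus control, horizontal axis) of each of the 53 members (vertical axis), coloured by complex, with its 95% interval from limma (n = 3 arrays per group). Open circles mark the 8 members whose arrays did not overlap between groups. ND-B8, at 0.37, stands to the right, and all other points sit between -0.16 and 0.084.

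Complex I is an L-shaped enzyme with a peripheral arm that holds the NADH site and the iron-sulphur clusters and a membrane arm that pumps protons. Its 26 members had a median log2 difference of -0.085, with 23 below 0 and 0 called. The 3 measured core subunits, all of the peripheral arm, had a median of -0.029. ND-75, the large iron-sulphur subunit, had intensities of 793.0, 932.6 and 783.3 in the high-sucrose arrays, against 665.4, 823.3 and 885.0 in the control arrays. The groups overlapped, and control 1 was the lowest of the 6 (log2 difference 0.084 ± 0.11 SE; adjusted p = 0.798). ND-51, the subunit that binds NADH, had 939.4, 1105 and 993.5 in high-sucrose and 981.2, 1007 and 1110 in control arrays (-0.029 ± 0.073; adjusted p = 0.91). ND-20, which in mammals lies next to the site where ubiquinone is reduced, had 850.4, 858.7 and 785.3 in high-sucrose and 879.1, 836.3 and 964.2 in control arrays (-0.10 ± 0.066; adjusted p = 0.579). In all 3 core genes values of both groups interleaved.

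The 23 accessory subunits of complex I surround this core and are needed to assemble or stabilise it. Their median log2 difference was -0.087, with 21 below 0. The lowest values were those of ND-ASHI and ND-B18, counterparts of mammalian subunits of the membrane arm. ND-ASHI had 1265, 1386 and 1152 in high-sucrose and 1358, 1370 and 1499 in control arrays (-0.15 ± 0.073; adjusted p = 0.44), so that high-sucrose 2 lay among the control arrays. ND-B18 had 1106, 1214 and 1118 in high-sucrose and 1174, 1264 and 1355 in control arrays (-0.14 ± 0.065; adjusted p = 0.434).

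ND-MLRQ, whose mammalian counterpart is now counted with complex IV, had 6627, 7042 and 6927 in high-sucrose and 7071, 7438 and 7779 in control arrays, without overlap (-0.11 ± 0.051; adjusted p = 0.412). ND-B16.6, counterpart of the mammalian subunit GRIM-19, had 2163, 2202 and 2151 in high-sucrose and 2203, 2328 and 2381 in control arrays (-0.084 ± 0.048; adjusted p = 0.515). Its groups did not overlap, but high-sucrose 2 and control 1 were nearly equal.

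On the higher side stood ND-B8 and ND-18. ND-B8 had 36.6, 36.1 and 30.8 in high-sucrose and 23.4, 26.1 and 19.98 in control arrays, without overlap (0.37 ± 0.13; adjusted p = 0.267). This is the largest difference among the members, and it was measured at the lowest mean intensity of all 53, where the added pseudocount of 16 weighs on the size: the log2 difference was 0.18 with a pseudocount of 64 and 0.56 with 1. ND-18, counterpart of a mammalian subunit needed to attach the NADH-binding module, had 868.8, 887.9 and 830.3 in high-sucrose and 759.4, 837.1 and 865.4 in control arrays (0.072 ± 0.062; adjusted p = 0.683). The other 17 complex I members, among them the acyl carrier protein ND-ACP, had log2 differences from -0.11 to -0.0069. One further gene, ND-MNLL, is dropped by its final letter although it names a complex I subunit and no paralogue. Its log2 difference was -0.078 ± 0.061 (adjusted p = 0.645), and with it the complex I median was -0.084.

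Complex III moves electrons from ubiquinol to cytochrome c. Its 7 members had a median log2 difference of -0.047, with 6 below 0, 0 called and 0 without overlap. Cyt-c1, the haem subunit that delivers electrons to cytochrome c, had 2222, 2638 and 2176 in high-sucrose and 2276, 2472 and 2754 in control arrays (-0.093 ± 0.089; adjusted p = 0.713). RFeSP, the Rieske iron-sulphur protein, had 993.8, 1101 and 955.0 in high-sucrose and 962.3, 1016 and 1085 in control arrays (-0.007 ± 0.069; adjusted p = 0.978). For both catalytic subunits high-sucrose 2 was among the highest arrays, and the groups covered nearly the same range. UQCR-6.4, a small accessory subunit, had 3367, 3752 and 3490 in high-sucrose and 3622, 3849 and 4294 in control arrays, the lowest difference of this complex (-0.15 ± 0.07; adjusted p = 0.439). Of further small subunits, UQCR-14 lay at -0.073 ± 0.053 (adjusted p = 0.617), ox at -0.046 ± 0.061 (adjusted p = 0.811) and UQCR-Q at -0.047 ± 0.071 (adjusted p = 0.833). UQCR-11 was dim, with 29.8, 33.2 and 46.0 in high-sucrose and 38.8, 34.4 and 31.1 in control arrays (0.035 ± 0.15; adjusted p = 0.95).

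Complex IV, cytochrome c oxidase, carries its haems and copper on subunits of the mitochondrial genome, and the nuclear subunits measured here sit around them. Its 9 members had a median log2 difference of -0.081, with 8 below 0 and 0 called. By the brightest probe set of each gene, the 3 lowest were the only members of any complex under an unadjusted p of 0.05 on the lower side. Other probe sets of ND-ACP, given below, were also under it. COX7A had 4035, 4118 and 3863 in high-sucrose and 4303, 4444 and 4684 in control arrays (-0.16 ± 0.05; adjusted p = 0.24). COX7B had 4799, 4745 and 4863 in high-sucrose and 5157, 5145 and 5469 in control arrays (-0.13 ± 0.045; adjusted p = 0.279). COX5B had 4451, 4516 and 4353 in high-sucrose and 4588, 4909 and 5047 in control arrays (-0.13 ± 0.05; adjusted p = 0.343). In these genes every high-sucrose array was under every control array, and the fitted differences were -10.5%, -8.59% and -8.32%. These sizes are on the deposited scale. With quantile scaling the log2 differences of COX7A, COX7B and COX5B were -0.076, -0.043 and -0.051, and with cyclic loess -0.076, -0.043 and -0.04. COX8, by contrast, had 4615, 4729 and 4670 in high-sucrose and 4550, 4586 and 4760 in control arrays (0.012 ± 0.043; adjusted p = 0.937). The counterparts of mammalian COX6C and COX6A, cype and levy, lay at -0.042 ± 0.047 (adjusted p = 0.763) and -0.06 ± 0.062 (adjusted p = 0.738), and COX4, COX5A and COX7C between -0.097 and -0.079.

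Complex V couples a membrane ring to a catalytic head. All 11 members lay below 0, with a median log2 difference of -0.071, 0 called and a range from -0.12 to -0.0096. The 4 members of the head and central stalk had a median of -0.032. The alpha subunit blw had 5981, 6630 and 6187 in high-sucrose and 5851, 6180 and 6922 in control arrays (-0.0096 ± 0.068; adjusted p = 0.97). ATPsynbeta, which carries the catalytic sites, had 3663, 3625 and 3702 in high-sucrose and 3738, 3810 and 3773 in control arrays (-0.043 ± 0.042; adjusted p = 0.723). Its arrays did not overlap, with SDs of 38.2 in high-sucrose and 35.9 in control arrays (n = 3 each). The standard error of the fit, which limma draws toward that of probe sets of like intensity, was about as large as the difference. The rotor subunit ATPsyngamma lay at -0.021 ± 0.051 (adjusted p = 0.905). ATPsyndelta, beside it in the stalk, had 2739, 2781 and 2623 in high-sucrose and 2810, 2834 and 2998 in control arrays, again without overlap (-0.085 ± 0.049; adjusted p = 0.515).

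The 4 subunits of the peripheral stalk, which holds the head still, had a median of -0.079. ATPsynCF6, the coupling factor, had 3786, 4109 and 3719 in high-sucrose and 4044, 4139 and 4463 in control arrays, the lowest difference of the complex (-0.12 ± 0.058; adjusted p = 0.432). ATPsynO, the link between stalk and head, lay at -0.086 ± 0.058 (adjusted p = 0.585), and ATPsynB and ATPsynD at -0.065 and -0.071. The 3 membrane subunits had a median of -0.076. ATPsynC, which builds the rotating ring, had 5349, 5680 and 5031 in high-sucrose and 5381, 5624 and 6227 in control arrays (-0.10 ± 0.067; adjusted p = 0.58).

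Across the 4 complexes, 7 members did not overlap on the lower side and 1, ND-B8, on the higher side. Over all tested probe sets these shares were 12.6% and 5.96%, and among the members 13.2% and 1.89%. The share on the lower side is thus near that of the whole array. It was 23.1% for all probe sets above the upper quartile of brightness and 36.4% for the brightest 5%. The 7 were ND-B16.6 and ND-MLRQ of complex I, COX5B, COX7A and COX7B of complex IV, and ATPsynbeta and ATPsyndelta of complex V.

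**Figure D2:**
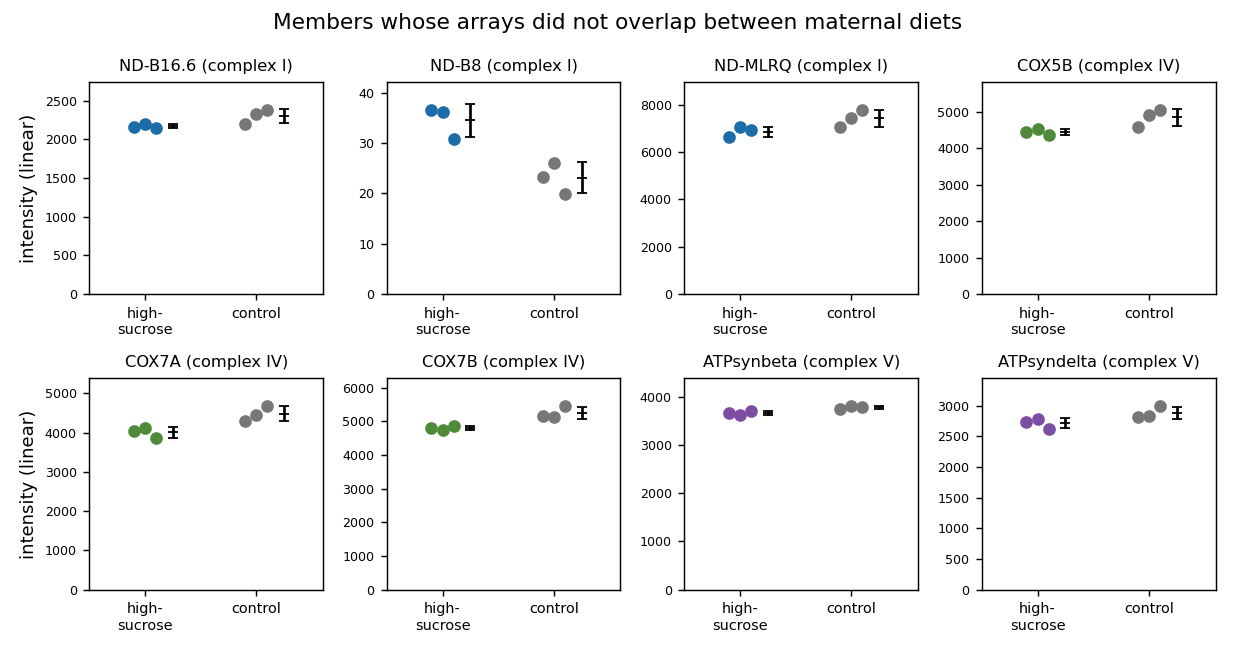
Linear intensity (vertical axis, from 0) of the 8 members whose 3 high-sucrose arrays (coloured by complex) and 3 control arrays (grey) did not overlap; each point is 1 array, and the black mark beside the points gives mean and SD. In 7 panels the high-sucrose arrays lie slightly lower, and in ND-B8, at intensities of 19.98 to 36.6, they lie higher.

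The subunits of the 4 complexes varied together from array to array, and this variation within the groups was about as large as the difference between them. For each array the median over members of the log2 deviation from the gene's own mean over the 6 arrays was taken. It was -0.065, 0.037 and -0.088 in high-sucrose arrays 1, 2 and 3, against -0.031, 0.024 and 0.12 in control arrays 1, 2 and 3. High-sucrose 2 thus lay above 2 of the 3 control arrays. The group means were -0.039 ± 0.067 in high-sucrose and 0.037 ± 0.076 in control arrays (SD, n = 3 each), so that their difference of -0.076 was close to the pooled SD of 0.071. Without control 3 the median log2 difference of the members was -0.035, with 39 of 53 below 0, and without high-sucrose 3 it was -0.05, with 44 below 0. It was -0.11 without control 1, with 50 below 0, and -0.12 without high-sucrose 2, with 48 below 0. Without high-sucrose 1 or control 2 it was -0.057 or -0.078, with 43 or 47 below 0.

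Each complex repeated this profile. The lowest array was high-sucrose 3 in all 4 complexes, at -0.084 for complex I, -0.09 for III and IV and -0.077 for V. The highest was control 3, at 0.13 for complex I, 0.12 for complexes IV and V and 0.096 for complex III. Control 3 held the highest value of 42 of the 53 members (79.2%), as against 23.4% of all probe sets and 38.8% of the brightest 5% of probe sets. High-sucrose 3 held the lowest value of 29 members (54.7%), as against 17.5% of all probe sets and 31.1% of the brightest 5%. The range of the median over the 6 arrays was 0.21 for the members and 0.072 for all 4692 probe sets above the upper quartile of brightness, a far larger set. The range for the members was 0.13 with quantile scaling, 0.12 with cyclic loess and 0.20 with median centring.

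The complexes differed little from each other within an array. The gap between the medians of any pair of complexes stayed between -0.043 and 0.062 in every array. The widest diet difference in such a gap was that between complexes III and IV, which was 0.013 ± 0.044 in high-sucrose and -0.017 ± 0.0079 in control arrays (SD, n = 3 each). It lay above 0 in high-sucrose 2 alone, at 0.062. For complexes I and V the gap was 0.0011 ± 0.0078 in high-sucrose and -0.0040 ± 0.018 in control arrays. These gaps are given without a test, since the members of a complex are not replicates.

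The sums of the muscle markers moved partly in the same way from array to array. By maternal diet, 6 of the 9 measured muscle genes had a log2 difference above 0, with a median of 0.0051. Their summed intensity was 43956, 45282 and 42421 in high-sucrose arrays 1, 2 and 3, against 42663, 43772 and 45617 in control arrays 1, 2 and 3. Control 3 was the highest and high-sucrose 3 the lowest for both the muscle genes and the subunits, whereas high-sucrose 1 ranked higher for muscle. The midgut sums had the same highest and lowest arrays, at 25307 in control 3 and 16154 in high-sucrose 3. The fat body and testis sums had their extremes in other arrays. This order of arrays was thus not particular to muscle. The part of muscle or midgut content in the profile of the subunits was not tested.

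**Figure D3:**
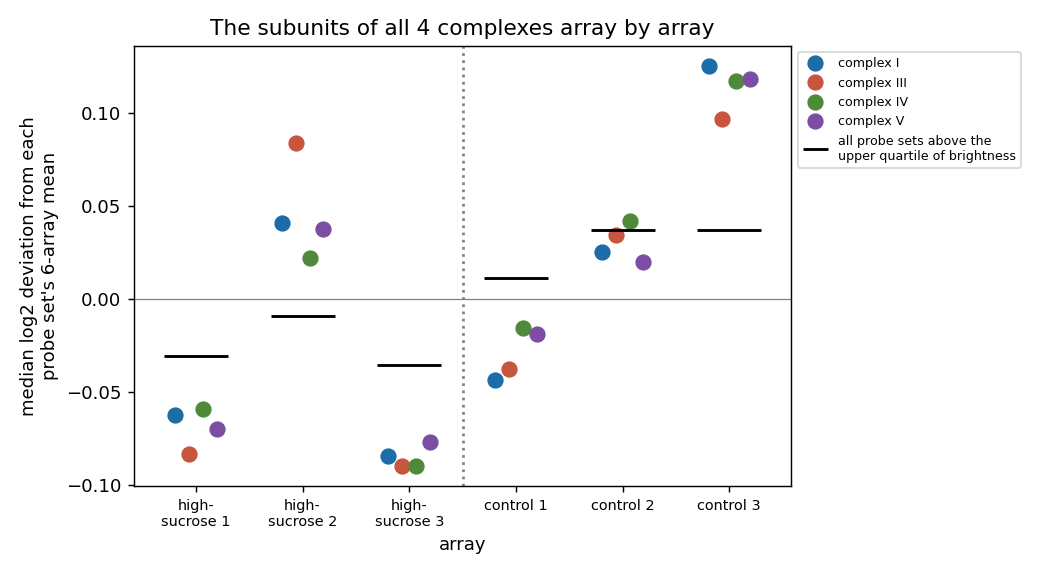
Median over the members of each complex of the log2 deviation from the probe set's own 6-array mean (vertical axis), for each array (horizontal axis, high-sucrose left of the dotted line, control right of it). Black bars give the same median over all probe sets above the upper quartile of brightness; control 3 is highest and high-sucrose 3 lowest for every complex.

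The direction of these differences depended on how the arrays were scaled. The members are bright, and bright probe sets as a whole lay lower in the high-sucrose arrays. All probe sets above the upper quartile of brightness had a median log2 difference of -0.053 with 67.4% below 0, and the brightest 5% had a median of -0.074 with 78.4% below 0, beside -0.079 and 90.6% for the members. Quantile scaling and cyclic loess, which make brightness ranges alike between arrays, brought the median of the members to 0.011 and 0.0066, with 20 and 26 of the 53 below 0. Median centring, which shifts each array as a whole, gave -0.053 with 41 below 0. Under every one of these scalings 0 members were called. The array profile changed in part. With quantile scaling the medians of the members were -0.012, 0.051 and -0.018 in high-sucrose arrays 1, 2 and 3, against -0.061, -0.012 and 0.067 in control arrays 1, 2 and 3. Control 3 and high-sucrose 2 stayed the highest arrays, and control 1 became the lowest. For complex III high-sucrose 2 was the highest array in all 3 other scalings, at 0.10, 0.098 and 0.099 with quantile scaling, median centring and cyclic loess, against 0.041, 0.060 and 0.050 in control 3.

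**Figure D4:**
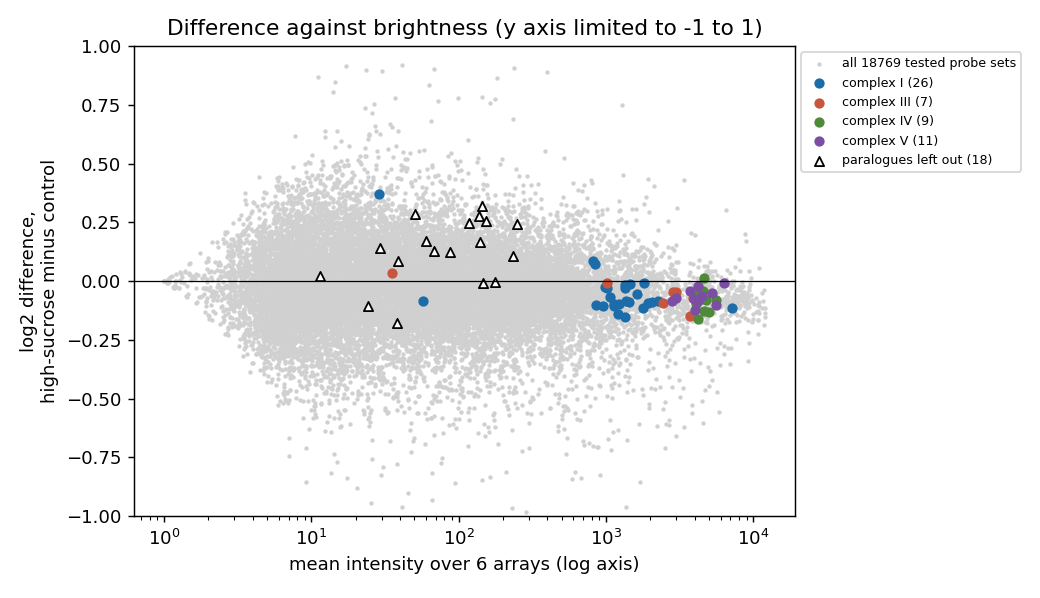
Log2 difference (high-sucrose minus control, vertical axis) against mean intensity over the 6 arrays (horizontal log axis) for all 18769 tested probe sets (grey), the members (coloured by complex) and 18 paralogues left out by their symbols (triangles); 25 probe sets lie beyond the vertical limits of -1 and 1. On the deposited scale most members sit at the bright end just under 0, and most paralogues sit at lower intensity above 0.

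Of the members, 7 had more than 1 probe set, and some of these disagreed in size. ND-ACP is the clearest case. Its brightest probe set lay at -0.011 ± 0.046 (adjusted p = 0.949). The other 2 lay at -0.19 ± 0.062 (unadjusted p = 0.0128, adjusted p = 0.251) and -0.20 ± 0.071 (unadjusted p = 0.0179, adjusted p = 0.275). For the second of these arrays overlapped, with 751.1, 881.1 and 792.3 in high-sucrose and 930.1, 880.7 and 986.8 in control arrays. For the first they did not: 899.5, 1001 and 957.4 in high-sucrose and 1059, 1050 and 1162 in control arrays. ATPsynbeta had -0.043 ± 0.042 at its brightest probe set and -0.19 ± 0.09 at the other (adjusted p = 0.439). ATPsyngamma had -0.021 ± 0.051 at its brightest probe set and -0.098 ± 0.069 at the other (adjusted p = 0.604), with -0.060 for their mean. The brightest and the second probe set of COX7B gave -0.13 and -0.11, while the dimmest was at 20.5 ± 3.35 in high-sucrose and 15.5 ± 2.29 in control arrays (SD, n = 3 each). The mean of all COX7B probe sets, the dim one included, gave -0.0082. Second probe sets of RFeSP and COX7C were also far dimmer than the first, with mean intensities of 10.2 and 142.5. With the mean of all probe sets of a gene in place of the brightest, 0 members were called, and the medians of complexes I, III, IV and V were -0.087, -0.073, -0.06 and -0.076. Probe sets with the suffix _s_at, which can share probes between transcripts, read 9 of the 53 members.

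Other genes of the respiratory chain were examined by lists. Of complex II, succinate dehydrogenase, 3 of 4 listed genes were measured, 0 were called, 1 had an unadjusted p under 0.05 and all 3 lay below 0, with a median of -0.054. SdhD, a membrane anchor, had 1154 ± 27.8 in high-sucrose and 1268 ± 77.4 in control arrays without overlap (SD, n = 3 each; -0.13 ± 0.057 SE; adjusted p = 0.383), and SdhC, the other anchor, lay at -0.054 ± 0.081. Of 7 listed carriers and related genes 6 were measured and 0 called, 1 had an unadjusted p under 0.05, and the median was -0.047. The nucleotide exchanger sesB, which trades ADP for ATP across the inner membrane, lay at -0.014 ± 0.049 (adjusted p = 0.939) and is given as the other exchanger, after its values were seen. Its neighbour Ant2, a second exchanger, had 438.0 ± 13.4 in high-sucrose and 383.3 ± 25.1 in control arrays without overlap (SD, n = 3 each; 0.19 ± 0.066 SE; adjusted p = 0.279). The phosphate carrier Mpcp1 lay at -0.10 ± 0.11.

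Of 14 listed assembly factors 6 were measured, with 0 called and 0 at an unadjusted p under 0.05. All 6 lay below 0, with a median of -0.097; the copper chaperone Cox17 lay at -0.15 ± 0.075 (adjusted p = 0.474) and the complex IV assembly factor Surf1 at -0.21 ± 0.16 (adjusted p = 0.642). Of 10 listed regulators of mitochondrial genes 7 were measured, with 0 called, 0 at an unadjusted p under 0.05 and a median of -0.059; foxo lay at -0.098 ± 0.074 and mtTFB2, a factor of mitochondrial transcription, at -0.12 ± 0.11. The 13 genes of the mitochondrial genome, which code for further subunits of complexes I, III, IV and V, were not analysed here.

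The 18 paralogues left out by their symbols, many of them testis genes in Drosophila, lay on the other side. Their median log2 difference was 0.14, with 14 of 18 above 0, 0 called, 4 higher at an unadjusted p under 0.05 (22.2%, against 3.59% of all probe sets) and 5 without overlap on the higher side (27.8%, against 5.96%). The pair with the smallest p among them, chosen after the values were seen, were ATPsynepsilonL and COX7AL. ATPsynepsilonL had 172.4, 161.4 and 174.1 in high-sucrose and 136.3, 133.6 and 147.3 in control arrays (0.26 ± 0.078; adjusted p = 0.216). COX7AL had 187.7, 149.1 and 152.4 in high-sucrose and 126.9, 123.6 and 130.1 in control arrays (0.32 ± 0.097; adjusted p = 0.22). In both genes every high-sucrose array lay above every control array. The median stayed above 0 with each of the 3 other scalings (0.16 each). It was 0.081 without control 2 and 0.088 with a pseudocount of 64. The median deviation of the paralogues from their own means was 0.012, 0.069 and 0.096 in high-sucrose arrays 1, 2 and 3, against -0.023, -0.19 and 0.028 in control arrays 1, 2 and 3, so that control 2 stood apart on the low side. The summed testis markers of the 2 groups did not overlap and were higher in high-sucrose, as given above, and their part in the paralogues' values was not tested.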

How the data were processed

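RNA of whole larvae was hybridised to Affymetrix arrays as biotinylated cRNA, per the labels' protocols. The authors deposited linear intensities, with 1 value for each probe set on each array. How probes were summarised, corrected for background and scaled is not stated in the labels or headers. They were used without further scaling. The 183 control probe sets were left out, which leaves 18769. Gene symbols came from the platform's probe table; 13647 probe sets carry 1 symbol, 402 several and 4720 none. All 53 member symbols were current in the RefSeq table of Release 6.

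Differences were tested on log2(intensity + 16), a scale that understates the change of dim genes, in R 4.3.3 with limma 3.58.1 (2 groups, 3 arrays each, variances that follow intensity, residual df 4, prior df 5.163), with Benjamini-Hochberg adjustment over all 18769 probe sets at a threshold of 0.05. Arrays were grouped by maternal diet from the treatment label, and titles call them biological replicates. The p-values and SEs rest on the spread between these arrays, drawn by limma toward that of probe sets of like intensity. The number of arrays limits the precision. Intensities were compared across arrays within a probe set and were not read as transcript levels between genes. Complexes and lists are described by counts and medians, with no test.

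Named by rule are members without overlap, the 3 lowest and 3 highest of each complex, measured core subunits, and 2 genes with the smallest p of each pathway list; other members are given by range or value. Members and lists were chosen with earlier results of these data known. Alternatives were 3 scalings, pseudocounts of 1 and 64, filters that kept the brightest 50% or 70%, 2 variance models, a replicate block, the mean of all probe sets of a gene, and each array left out. In 10 simulations with 200 changed probe sets among 18769, limma recovered 34.2% of changes of 0.4, 74.3% of those of 0.6 and 96.1% of those of 1 (log2), and 5.75% of its calls were false. The changed probe sets were drawn from the brighter 50% only, and noise was drawn for each probe set independently. These shares therefore do not cover dim members or shifts that members share within an array. No change smaller than 0.4 was simulated. The differences of the members above the upper quartile of brightness lay between -0.16 and 0.084, so the shares do not describe changes of that size either.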

Additional observations from a re-analysis of the deposited data

How the results depend on the processing

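No member was called under any alternative tried; the smallest adjusted p of a member was 0.13, with probe sets limited to the upper 50% by mean, where 51 of the 53 members were tested. The medians of complexes I, III, IV and V kept their sign whichever array was left out, with ranges of -0.12 to -0.036, -0.106 to -0.018, -0.128 to -0.043 and -0.103 to -0.041. Under quantile scaling the medians of complexes III, IV and V were 0.045, 0.012 and 0.022, and under cyclic loess they were 0.031, 0.0068 and 0.0072, while that of complex I stayed below 0.

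Of 28 named members, 13 turned sign under quantile scaling: blw 0.088, ATPsynbeta 0.075, RFeSP 0.062, ATPsyngamma 0.0599, ox 0.056, ND-51 0.047, cype 0.037, UQCR-14 0.033, levy 0.031, ATPsyndelta 0.024, ND-B16.6 0.022, Cyt-c1 0.011 and ATPsynO 0.0047. Under cyclic loess 9 did: blw 0.081, ATPsyngamma 0.062, RFeSP 0.053, cype 0.043, ATPsynbeta 0.039, ox 0.032, ND-51 0.031, levy 0.023 and UQCR-14 0.0097. Under median centring 3 did: RFeSP 0.0198, blw 0.017 and ATPsyngamma 0.0054. With 1 array left out, blw ranged from -0.063 to 0.058, RFeSP from -0.065 to 0.037, ND-51 from -0.093 to 0.023, ATPsyngamma from -0.047 to 0.016, UQCR-11 from -0.094 to 0.13, ND-75 from -0.033 to 0.17 and COX8 from -0.00028 to 0.032. The cause of these turns was not tested.

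Over all probe sets, 10 higher and 107 lower calls became 17 and 76 under quantile scaling, 17 and 85 under cyclic loess, 23 and 110 under median centring, 1 and 3 without the intensity trend, and 19 and 176 with robust variances. With 1 array left out they ranged from 2 to 9 and from 11 to 154, with the lowest of both without control 2. With the replicate number as a block they were 4 and 59, and again 0 members were called. The same-numbered arrays correlated at -0.072, 0.025 and -0.014 in their deviations from the group means, no array correlated best with its own number, and the numbers were not taken to pair the arrays. The dim signals of ND-B8, ND-B12 and UQCR-11 limit what their values show.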
